A study of Homo sapiens with 2 samples.

Results

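The genes described here are the G1 cyclins, their kinases and the phosphatase CDC25A, chosen by name: CCND1, CCND2, CCND3, CDK4, CDK6, CCNE1, CCNE2, CDK2, CCNA2 and CDC25A. Of these 10 genes, 9 had a row in both expression tables, out of 21225 genes in all, and CCND2 had none and was not analysed here. Expression had been measured by RNA-seq in Huh7, an established human hepatoma line, in 1 library from cells with a control shRNA and 1 library from cells with an shRNA against E2F6, a repressor of the E2F family of transcription factors. The sources used here do not give the shRNA sequences, the time after transfection or the number of cultures. With 1 library for each condition, every difference is one between these libraries, no test between conditions could be made and no p-value is given. Levels are in FPKM, fragments scaled to gene length and library total, and paired values are given for the control shRNA library first.

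Cells pass from G1 into DNA replication by the ordered action of cyclin-dependent kinases. D-type cyclins, made in response to growth signals, bind CDK4 and CDK6 and begin the phosphorylation of the retinoblastoma protein RB1, which releases E2F factors. E2F factors induce cyclin E, which binds CDK2 and completes the phosphorylation, and cyclin A, which binds CDK2 in S phase. CDC25A removes inhibitory phosphates from CDK2. CCNE1, CCNA2 and CDC25A are textbook E2F target genes, and in hepatocellular carcinoma cyclin D1 and cyclin E1 are among the genes found amplified.

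The E2F6 row, which checks the labels, was at 2.54 and 0.997 FPKM, or 39.3% of its control level, with an interval from counting error of 32.1 to 47.9% at the 95% level. The scaling of the values corresponded to totals of 17139209 and 14724834 fragments. Over the 11574 genes whose mean reached 1 FPKM, the median difference on the log2(FPKM + 1) scale was -0.002. A gene was called higher or lower where its difference on that scale was at least 1 in size, which 3.23% of these genes reached, 1.17% higher and 2.06% lower. All 10 hepatocyte markers had values above 0 in both libraries, with HNF4A called higher at 4.56 and 15.3 FPKM and 3 called lower, ALB (albumin) at 173 and 77.6 FPKM, APOB and AHSG. Of 10 markers each, 8 for fibroblasts and stellate cells summed to 42.7 and 63.4 FPKM, 5 for macrophages to 243 and 135 FPKM, nearly all of it LYZ (lysozyme), 3 for T and B cells to 9.97 and 7.87 FPKM, nearly all of it CD3D, and 2 for endothelial cells to 1.53 and 2.86 FPKM, the others having no row. None of these passed the rule, and their part in the results was not tested.

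The G1 genes differed among themselves, and each differed between the libraries by less than the rule of size. CDK4 was at 20.96 and 38.9 FPKM, CDC25A at 23.99 and 41.7 FPKM, CCNE1 at 6.46 and 9.54 FPKM and CDK2 at 5.60 and 7.77 FPKM, ratios of 1.86, 1.74, 1.48 and 1.39. The D-type cyclins and CDK6 were nearly level between the libraries, with ratios of 0.932 to 1.05. CCNA2 and CCNE2 had ratios of 0.835 and 0.531. In bulk RNA, fewer cells expressing a gene and less of its RNA per cell cannot be told apart. Of the 7 genes whose mean reached 1 FPKM, 0 were higher and 0 lower by the rule of size, against 3.23% of all genes. Their median difference was 0.41, with 5 differences above 0 and 2 below, beside a median of -0.002 and 49.7% above 0 for all genes at that level. Over all 9 genes with a row, 5 differences were above 0 and 4 below, and the median was 0.073, while on the TPM scale, where all values are larger against the same minimum and pseudocount, it was 0.017. CCND3 and CCNE2, at means of 0.771 and 0.839 FPKM, fell under the minimum and are described by their values alone.

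**Figure D1:**
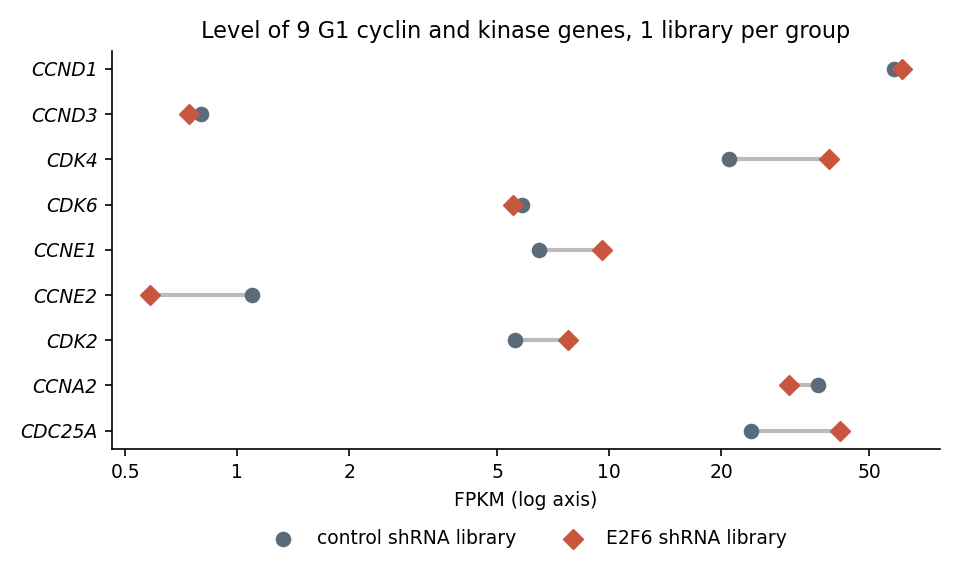
FPKM (log axis) of the 9 genes with a row in both tables, as circles for the control shRNA library and diamonds for the E2F6 shRNA library, 1 library each. CCND1 was the highest in both, at 58.2 and 61.3 FPKM, and CDK4 was at 20.96 and 38.9 FPKM.

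The promoters of 4 of these genes are shown because these genes include the largest differences in either direction at a mean of 1 FPKM or more. Each is the window from 250 bases before to 50 bases after the RefSeq start on GRCh38.p14, read along the gene's strand. Capitals mark TCCCGC, the core that E2F6 and other E2F factors bind, on either strand (GCGGGA is its reverse complement), the longer E2F motifs TTTCCCGC, TTTGGCGC, TTTCGCGC and TTTGCCGC on either strand, and the E-box CACGTG, which reads the same on both. TTTCCCGC would overlap TCCCGC.
CDK4, chr12:57752261-57752560, minus strand: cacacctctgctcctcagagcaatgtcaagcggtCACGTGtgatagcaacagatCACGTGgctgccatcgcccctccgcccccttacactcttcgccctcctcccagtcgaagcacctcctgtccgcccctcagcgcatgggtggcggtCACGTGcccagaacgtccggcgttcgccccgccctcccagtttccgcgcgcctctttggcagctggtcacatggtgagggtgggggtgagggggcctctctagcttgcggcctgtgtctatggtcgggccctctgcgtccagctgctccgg
CDC25A, chr3:48188368-48188667, minus strand: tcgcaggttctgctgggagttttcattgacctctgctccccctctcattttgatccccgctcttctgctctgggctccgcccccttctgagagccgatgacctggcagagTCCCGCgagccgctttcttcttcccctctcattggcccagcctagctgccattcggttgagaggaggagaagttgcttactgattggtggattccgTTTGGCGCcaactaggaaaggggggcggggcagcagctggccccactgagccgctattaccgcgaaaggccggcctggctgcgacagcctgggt
CCNE1, chr19:29811741-29812040, plus strand: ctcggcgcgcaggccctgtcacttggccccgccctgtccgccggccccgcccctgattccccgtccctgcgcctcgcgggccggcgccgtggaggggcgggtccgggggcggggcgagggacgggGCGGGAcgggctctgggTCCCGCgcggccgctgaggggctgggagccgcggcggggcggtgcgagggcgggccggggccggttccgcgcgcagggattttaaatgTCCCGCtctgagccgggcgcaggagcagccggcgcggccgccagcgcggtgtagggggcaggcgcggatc
CCNA2, chr4:121823834-121824133, minus strand: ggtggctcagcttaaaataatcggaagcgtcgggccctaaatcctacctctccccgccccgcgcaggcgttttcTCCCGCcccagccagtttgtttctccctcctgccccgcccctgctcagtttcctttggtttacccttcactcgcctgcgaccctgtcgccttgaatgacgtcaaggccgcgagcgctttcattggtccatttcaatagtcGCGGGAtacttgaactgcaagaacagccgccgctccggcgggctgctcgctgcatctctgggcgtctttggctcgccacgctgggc
The CDC25A window held 1 TCCCGC, 140 bases before the start, and 1 TTTGGCGC, 44 bases before it. The CCNE1 window held 3 copies of TCCCGC and the CCNA2 window 2, the nearest ones 20 and 36 bases before the start. In the CDK4 window none of the E2F motifs was found, and CACGTG occurred 3 times. Of all 35116 promoter windows in the table, 26.9% held TCCCGC, 3.31% any of the longer E2F motifs and 7.26% CACGTG. Of the genes with an E2F motif in the window, CDC25A and CCNE1 had ratios above 1 and CCNA2 had one below 1. The CCNA2 interval included 1 (0.919 to 1.03) after correction for transcript GC content. Whether the motifs go with the ratios was not tested. A motif match describes these letters and is not evidence of binding, and no binding was measured. CCND3 and CDK6 have more than 1 start in the table, with TCCCGC in 1 window each.

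Of the D-type cyclins with a row, the growth-factor-dependent partners of CDK4 and CDK6, CCND1 was far above CCND3 in both libraries. CCND1 (ENSG00000110092, chromosome 11) measured 58.2 FPKM with the control shRNA and 61.3 FPKM with the E2F6 shRNA, a ratio of 1.05. The 95% counting interval of that ratio, 1.003 to 1.10, only just left out 1, and it included 1 when each library was scaled to the same sum (0.964 to 1.06). After correction for transcript GC content the interval lay below 1 (0.899 to 0.990). CCND3 (ENSG00000112576, chromosome 6) was at 0.798 and 0.744 FPKM, a ratio of 0.932 with an interval of 0.755 to 1.15 that included 1. That interval used a recovered length of 15071 bases, and with the mean annotated transcript length it was far wider, 0.398 to 2.13. The level of CCND1 per length was 72.99 times that of CCND3 in the control and 82.4 times in the E2F6 shRNA library. The change of this within-library ratio, 1.13, had an interval of 0.910 to 1.40, which used the recovered CCND3 length and may be too narrow. Such a ratio of 2 genes within a library does not depend on how the library was scaled, but it was not corrected for the GC content of the genes. On the opposite strand, 10.3% of the exon bases of CCND1 are shared with LTO1, which was at 1.98 and 1.502 FPKM. The sources used here do not say whether reads were counted by strand, so reads of overlapping genes cannot be told apart.

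The partner kinases of cyclin D differed from each other. CDK4 (ENSG00000135446, chromosome 12) measured 20.96 FPKM with the control shRNA and 38.9 FPKM with the E2F6 shRNA, a ratio of 1.86 (95% counting interval 1.64 to 2.10). Its difference of 0.86 on the log2(FPKM + 1) scale was larger than that of 98.2% of the 11574 genes at a mean of 1 FPKM or more, and short of the rule of size. CDK6 (ENSG00000105810, chromosome 7), the other kinase of D-type cyclins, was at 5.81 and 5.51 FPKM, and its ratio of 0.948 had an interval of 0.845 to 1.06 that included 1. CDK4 thus stood at 3.60 times the level of CDK6 in the control and at 7.06 times in the E2F6 shRNA library. The change of that within-library ratio was 1.96, with an interval of 1.65 to 2.32. It was not corrected for GC content, which was 55.9% for CDK4 and 43.0% for CDK6. Against its cyclin partner, CDK4 was at 0.360 of the level of CCND1 in the control and 0.635 in the E2F6 shRNA library, a change of 1.76 (1.54 to 2.02). CDK4 shares 43.2% of its annotated exon bases with TSPAN31, which runs on the opposite strand and was at 0.308 and 0.358 FPKM. The part of this overlap in the CDK4 value was not tested.

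Cyclin E, the activator of CDK2 at the end of G1, is encoded by a pair of genes. CCNE1 had a ratio above 1. CCNE2 had one below 1, with an interval that included 1 after correction for GC content. CCNE1 (ENSG00000105173, chromosome 19) measured 6.46 FPKM with the control shRNA and 9.54 FPKM with the E2F6 shRNA, a ratio of 1.48 (95% counting interval 1.25 to 1.74), and its difference of 0.50 was larger than that of 92.4% of genes at a mean of 1 FPKM or more. CCNE2 (ENSG00000175305, chromosome 8) was at 1.096 and 0.583 FPKM, a ratio of 0.531 with an interval of 0.301 to 0.909. CCNE1 was therefore 5.90 times the level of CCNE2 in the control and 16.4 times in the E2F6 shRNA library, a change of 2.78 (1.58 to 5.02) in the within-library ratio. This change was not corrected for GC content, which was 50.7% for CCNE1 and 38.5% for CCNE2. The CCNE2 values rest on an estimated 46 and 21 fragments at the recovered length. On the opposite strand, 37.05% of the CCNE2 exon bases are shared with INTS8, which was at 4.03 and 2.96 FPKM. With fragments computed from the mean annotated transcript length in place of the recovered length, the CCNE2 interval was 0.227 to 1.08 and included 1. With the trend in transcript GC content taken off, the CCNE2 difference of -0.41 on the log2(FPKM + 1) scale was 0.014. The interval of its ratio, with the same trend taken off, was 0.403 to 1.22 and also included 1. The pseudocount shrinks differences at this level but not ratios, so that interval was not centred on 1.

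CDK2, the kinase bound by cyclins E and A, had a ratio above 1. CCNA2 had one below 1, with an interval that included 1 after correction for GC content. CDK2 (ENSG00000123374, chromosome 12) measured 5.60 FPKM with the control shRNA and 7.77 FPKM with the E2F6 shRNA, a ratio of 1.39 (95% counting interval 1.18 to 1.63). Relative to CCNE1, CDK2 was at 0.866 in the control and 0.814 in the E2F6 shRNA library, and the change of 0.940 had an interval of 0.746 to 1.19 that included 1. CCNA2 (ENSG00000145386, chromosome 4), which is needed for S phase and entry into mitosis, was at 36.3 and 30.3 FPKM, a ratio of 0.835 (0.788 to 0.884). With the GC trend taken off, its difference of -0.25 was -0.031 and its interval, 0.919 to 1.03, included 1. The within-library ratio of CDK2 to CCNA2 was 1.66 times its control value (1.40 to 1.97) in the E2F6 shRNA library, and that of CCNE1 to CCNA2 was 1.77 times (1.49 to 2.10), both without a correction for GC content. CCNA2 shares 9.08% of its exon bases with EXOSC9 on the opposite strand, which was at 4.28 and 3.40 FPKM, and CDK2 shares 2.29% with PMEL, at 0.181 and 0.162 FPKM, and 14.5% with an antisense gene that was not analysed here.

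CDC25A (ENSG00000164045, chromosome 3), the phosphatase that activates CDK2 complexes, measured 23.99 FPKM with the control shRNA and 41.7 FPKM with the E2F6 shRNA. The ratio was 1.74 (95% counting interval 1.65 to 1.84), and the difference of 0.77 was larger than that of 97.5% of genes at a mean of 1 FPKM or more. In the control CDC25A lay below CCNA2, at 0.660 of its level per length, and in the E2F6 shRNA library above it, at 1.37 times, a change of 2.08 (1.92 to 2.26). That change was not corrected for GC content, which was 52.2% for CDC25A and 42.1% for CCNA2. No annotated gene shared exon bases with CDC25A or CCNE1. Other members of the CDC25 family, CDC25B at 19.8 and 19.9 FPKM and CDC25C at 6.05 and 6.37 FPKM, had ratios of 1.004 and 1.05, and the WEE1 kinase gene, whose product places the phosphates that CDC25 enzymes remove, was at 4.03 and 7.05 FPKM, a ratio of 1.75 (1.602 to 1.92).

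**Figure D2:**
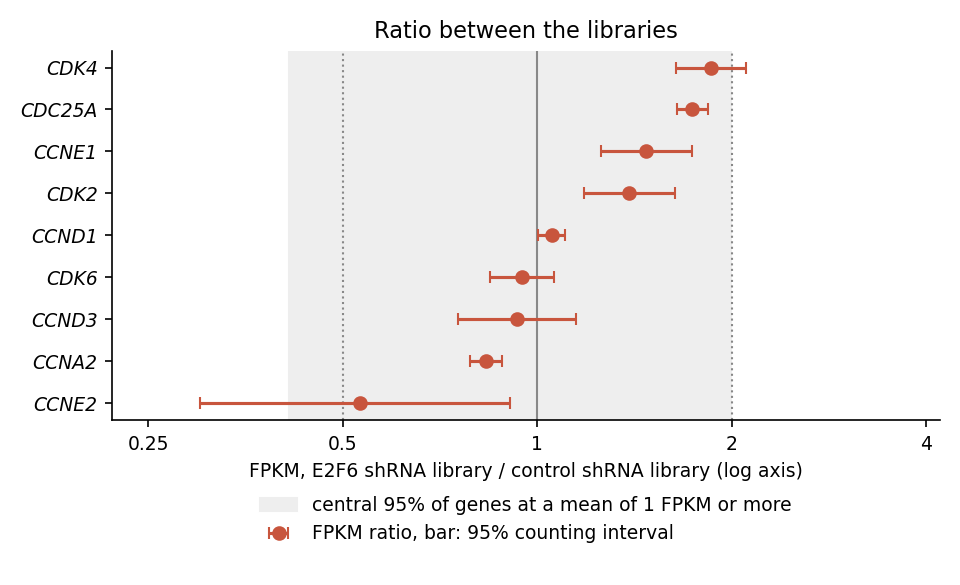
Ratio of FPKM between the E2F6 shRNA and control shRNA libraries (log axis) for the 9 genes, with bars for the 95% counting interval, dotted lines at the folds of 0.5 and 2, and shading for the central 95% of genes at a mean of 1 FPKM or more (0.413 to 1.995). CDK4, CDC25A, CCNE1, CDK2 and, only just, CCND1 lay above 1 with intervals that left out 1. CCNA2 and CCNE2 lay below 1 with such intervals, and all 9 ratios lay inside the shading. On the log2(FPKM + 1) scale, the central 95% ended at 0.772, with CDK4 (0.862) and CDC25A (0.774) above it.

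Most genes differed between these libraries by more than counting error. Among the 7 genes at a mean of 1 FPKM or more, the counting interval lay above 1 for 5 and below 1 for 1. For 11223 genes at that level with recovered fragments the interval lay above 1 in 31.5%, below 1 in 32% and excluded 1 in 63.5%. An interval that leaves out 1 is therefore common here, and it does not cover the spread between cultures, which was not measured.

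By level per length, the genes in the control shRNA library stood in the order CCND1, CCNA2, CDC25A, CDK4, CCNE1, CDK6, CDK2, CCNE2 and CCND3. Neighbours whose counting intervals overlapped were CDC25A with CDK4, CCNE1 with CDK6, CDK6 with CDK2, and CCNE2 with CCND3. In the E2F6 shRNA library the order was CCND1, CDC25A, CDK4, CCNA2, CCNE1, CDK2, CDK6, CCND3 and CCNE2, with overlapping intervals for CDC25A with CDK4, CCNE1 with CDK2, and CCND3 with CCNE2. CCNA2 and the pair CDC25A and CDK4 had thus changed places with intervals that did not overlap in either library. CCND1 ranked 525th of all genes in the control and 546th in the E2F6 shRNA library, while CDK4 ranked 1643rd and 897th and CDC25A 1454th and 824th. The genes of the lists below whose difference lay nearest to that of CDK4 were the collagen gene COL1A1 at 0.83, CDC25A at 0.77 and the replication factor C gene RFC2 at 0.68, a nearness measured over 2 libraries only.

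Transcript GC content and the difference between the libraries were related over 9900 protein-coding genes (Spearman correlation 0.480 across genes, which are not independent replicates and share the same libraries). The trend of the difference stood at 0.16 at the GC content of CDK4 (55.9%), 0.13 at that of CDC25A (52.2%), 0.10 for CCNE1 (50.7%) and 0.11 for CDK2 (51.4%). With this trend taken off, their differences were 0.70, 0.65, 0.40 and 0.30. The genes with ratios below 1 included the members of lowest GC content, CCNE2 at 38.5% and CCNA2 at 42.1%, where the trend was -0.42 and -0.22. Their differences of -0.41 and -0.25 became 0.01 and -0.03, and their counting intervals then included 1. CDK6, also of low GC content at 43.03%, went from -0.07 to 0.11, and CCND1 from 0.07 to -0.08.

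**Figure D3:**
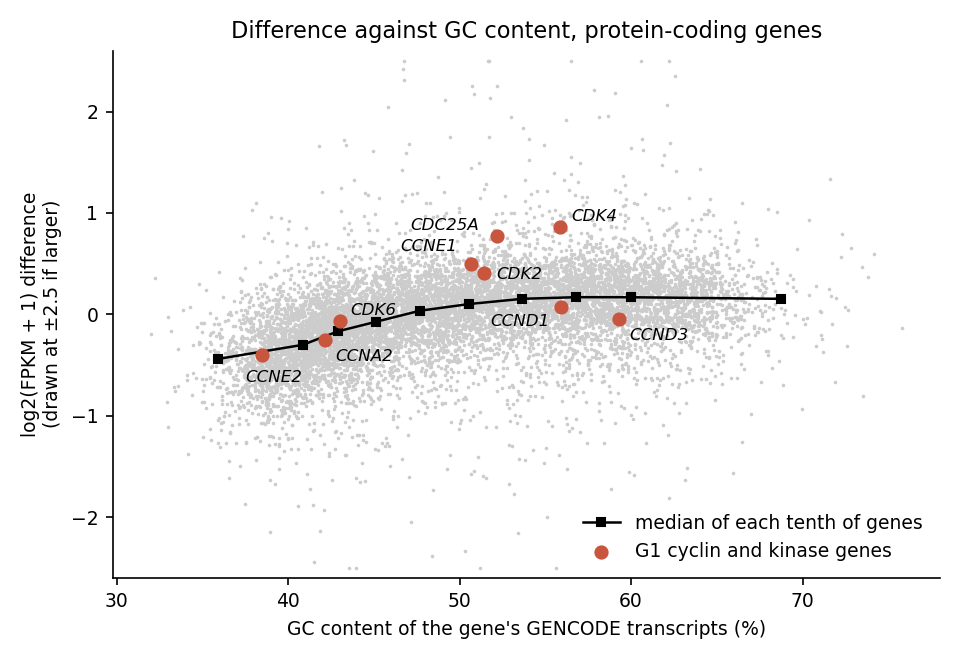
Difference on the log2(FPKM + 1) scale (E2F6 shRNA minus control shRNA) against transcript GC content for 9900 protein-coding genes (grey), the medians of 10 equal bins of them (squares) and the 9 G1 cyclin and kinase genes (red). CCNE2 and CCNA2 lay on the trend, at -0.41 and -0.25, and CDK4 and CDC25A above it, at 0.86 and 0.77.

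The inhibitors of these kinases were examined as a list of 8 genes. Among the 7 that reached a mean of 1 FPKM, 0 were higher and 0 lower by the rule of size, and the median difference was -0.16. The highest differences were those of CDKN1B, the p27 inhibitor of CDK2, at 24.8 and 29.8 FPKM, and CDKN2D, an inhibitor of CDK4 and CDK6, at 2.303 and 2.41 FPKM. The lowest were those of CDKN2C, another inhibitor of CDK4 and CDK6, at 9.31 and 5.42 FPKM, and CDKN3, a phosphatase of CDK2, at 12.5 and 9.06 FPKM. The counting interval of the ratio, from the fewest fragments that fitted, included 1 for CDKN2D (0.777 to 1.41), CDKN2C (0.275 to 1.17) and CDKN3 (0.517 to 1.008). A longer length would narrow these intervals, so whether they would still include 1 was not tested. The CDKN2C interval is wide for its level. The interval lay above 1 for CDKN1B (1.10 to 1.32). Among 10 activators and inhibitory kinases (median -0.04, 0 past the rule), WEE1 and the related kinase gene PKMYT1, at 1.49 and 1.87 FPKM, had the highest differences. The lowest were 2 subunits of the CDK-activating kinase, CCNH at 3.78 and 2.73 FPKM and MNAT1 at 7.39 and 5.90 FPKM. With the GC trend taken off, their differences of -0.36 and -0.28 were -0.0041 and 0.12.

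In the list for the turnover of cyclins and inhibitors, 0 of 14 genes passed the rule (median 0.10). SKP2, the ubiquitin ligase subunit that directs p27 to destruction, was at 16.9 and 23.9 FPKM, a ratio of 1.42 (1.34 to 1.49), and FZR1, an activator of the anaphase-promoting complex, at 5.36 and 7.79 FPKM. FBXW7, the ligase subunit that recognizes cyclin E, was at 1.73 and 0.830 FPKM, a ratio of 0.480 (0.406 to 0.565) and a difference of -0.58, and CUL3 was at 5.99 and 4.10 FPKM. SKP2 was thus higher and FBXW7 lower in the E2F6 shRNA library by more than counting error, without reaching the rule of size. With the GC trend taken off, the differences of FBXW7 and CUL3, -0.58 and -0.46, were -0.38 and 0.0048. Those of SKP2 and FZR1, 0.48 and 0.47, were 0.53 and 0.32.

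Of 12 pocket proteins and E2F factors, 1 was lower and 0 higher by the rule. The median was -0.13, or 0.0005 with the GC trend taken off. The lower gene was TFDP1, the dimerization partner of E2F factors, at 21.98 and 8.31 FPKM, a ratio of 0.378 (0.347 to 0.412). Of 25 G1/S target genes of E2F none was past the rule, with 9 differences above 0, 16 below and a median of -0.12. Beside this, the differences of CCNE1 and CDC25A were 0.50 and 0.77, and those of CCNA2 and CCNE2 were -0.25 and -0.41. After the GC correction the median was -0.037, and the 4 differences were 0.40, 0.65, -0.031 and 0.014 in that order. RFC2 and UHRF1, a maintenance factor of DNA methylation at 4.46 and 6.94 FPKM, stood highest in that list, and the polymerase gene POLA1, at 8.77 and 5.23 FPKM, was among the lowest.

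Of 15 mitotic cyclins and G2/M genes, 1 was lower by the rule, the topoisomerase gene TOP2A at 66.1 and 28.2 FPKM, and the median was 0.09. Its difference of -1.20 was -0.80 with the GC trend taken off, which ended the call. Chosen after its values were seen, CDK1, the kinase that cyclin A2 also binds, was at 22.2 and 14.6 FPKM, a ratio of 0.658 (0.618 to 0.700), and CCNB1 was at 54.8 and 58.6 FPKM. With the GC trend taken off, the CDK1 difference of -0.57 was -0.041. The other cyclins (0 of 11 past the rule, median 0.14) reached from CCNK, a partner of CDK12 and CDK13, at 4.06 and 7.05 FPKM, and CCNG2 at 1.92 and 3.57 FPKM, to CCNL1 at 2.504 and 1.03 FPKM and CCNT1 at 3.66 and 2.68 FPKM. With the GC trend taken off, the differences of CCNL1 and CCNT1, -0.79 and -0.34, were -0.55 and -0.088. Those of CCNK and CCNG2, 0.67 and 0.65, were 0.64 and 0.82. Among 10 other cyclin-dependent kinases 1 was lower by the rule (median -0.06), CDK8, the Mediator kinase, at 3.21 and 0.891 FPKM, a ratio of 0.278 (0.216 to 0.354). Its difference of -1.15 was -0.97 with the GC trend taken off, also short of the rule.

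Transcription factors known to induce cyclin D1 gave 0 of 20 genes past the rule and a median of 0.05, E2F1 being in this list and in that of the E2F factors. JUND was at 33.6 and 53.2 FPKM and FOSL2 at 2.22 and 3.82 FPKM, the highest differences, and TCF7L2, a Wnt pathway factor, at 2.19 and 1.33 FPKM and ATF2 at 7.14 and 5.01 FPKM, the lowest. With the GC trend taken off, the differences of TCF7L2 and ATF2, -0.45 and -0.44, were -0.50 and -0.16. Those of JUND and FOSL2, 0.65 and 0.58, were 0.54 and 0.45. Chosen after its values were seen, MYC was at 0.182 and 0.152 FPKM, under the minimum. None of 15 housekeeping reference genes passed the rule (median 0.16), with RPLP0 at 91.1 and 134 FPKM, PPIA at 77.8 and 104 FPKM, TFRC at 105 and 71.2 FPKM and YWHAZ at 26.6 and 25.3 FPKM. Single reference genes reached 0.55. The median of the reference genes lay below the 0.41 of the 7 G1 genes at a mean of 1 FPKM or more, and above the 0.073 of all 9.

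**Figure D4:**
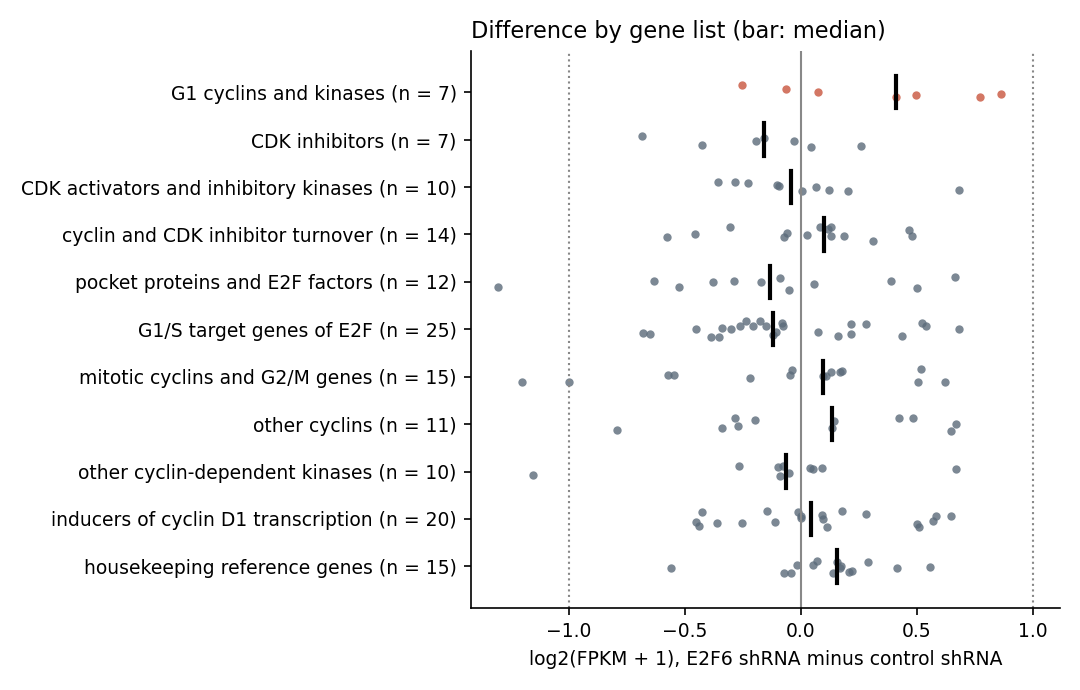
Difference on the log2(FPKM + 1) scale (E2F6 shRNA minus control shRNA) of every gene at a mean of 1 FPKM or more, by list, with a bar at each list's median and dotted lines at the rule of size. The 7 G1 cyclin and kinase genes have a median of 0.41, CDK inhibitors -0.16 and G1/S target genes of E2F -0.12. After the GC correction, which is not drawn, these medians were 0.30, -0.25 and -0.037.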

How the data were processed

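Total RNA of 2 libraries was sequenced with an mRNA library kit, per the labels' protocols. The authors deposited 1 gene table per library. Per the submitters' processing notes the tools were HISAT2 2.0.4 and StringTie 1.3.0 with the build GRCh37. The sources used here give neither settings nor annotation. The headers name only the sample. The deposited values were taken as FPKM because, for genes with 1 transcript in GENCODE release 29 (GRCh38, used for lengths, GC content, overlaps and chromosomes), value times length came within 0.01 of a whole number of fragments for 97.9% of 5452 and 97.9% of 5162 values.

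Of 21227 rows 2 were dropped, a gene row without a value and a row of spilled annotation text after it. Differences were log2(FPKM + 1), with a pseudocount of 1, which shrinks low values. Ratios are of FPKM itself. Fragments of a gene were taken as the fewest that were whole, within 0.0015, in both libraries for a length of 150 to 20000 bases. In 1784 genes with 1 transcript, whose annotated length gave whole fragments in both libraries, this gave that length in 81.8%. It gave a shorter one, hence a wider interval, in 18.05%, and by its design this check could hardly find a longer one. Genes with several transcripts were not checked, and a length too long makes an interval too narrow. The mean annotated transcript length gave every member with a row a wider interval, for CCND3 0.398 to 2.13. Intervals are exact conditional binomial for ratios between libraries, exact Poisson for levels and exact conditional odds ratios for the 8 within-library pairs, at 95%. They cover only counting error, because without molecular identifiers reads need not stand for separate molecules. The procedures were tested on simulated data.

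The members, 15 gene lists and tests were chosen with earlier results of these data known. Genes named were the members, E2F6, the list members past the rule of size (or, with none or more than 4, the 2 highest and 2 lowest at a mean of 1 FPKM or more) and the 3 nearest to the member with the largest difference, with others marked as chosen later. One gene that this rule names is not reported here. CDC25B and CDC25C were named after their values were seen. Alternatives were pseudocounts, minimum levels, centring, quantile normalization, a trimmed-mean (TMM) factor, a common sum (TPM scale), a lowess correction on GC content (span 0.3), a 1.5-fold rule, protein-coding genes alone and, added after the data were seen, the mean transcript length. The tools were scipy 1.17.1, statsmodels 0.14.6 and numpy 2.4.6 for the statistics, and pandas 2.3.3 and matplotlib 3.10.9 for tables and plots, under Python 3.11.15.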

Additional observations from a re-analysis of the deposited data

How the results depend on the processing

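CDK4, CDC25A, CCNE1 and CDK2 kept differences above 0, and CCNA2 one below 0, under all 10 recomputed settings. The changed minimum levels and the limit to protein-coding genes only decide which genes are counted, so they could not move these differences. Of 90 recomputed member differences, 85 moved by no more than the distance from the middle of the log2 counting interval to its end. These include the differences that could not move. Counted separately, 5 of the 90 changed sign, none of them a called value: CCND1 under quantile normalization (-0.050) and the GC correction (-0.085), CCND3 under quantile normalization (0.04), and CDK6 (0.11) and CCNE2 (0.01) under the GC correction. The GC correction also moved CCNA2 to -0.031 and CDC25A to 0.65. The median of the members was 0.073 with no minimum and 0.017 on the TPM scale, where CCND3 and CCNE2 enter it. No member passed the rule of size except CDK4 and CDC25A under the 1.5-fold rule, which gave 2 higher. Intervals below 1 numbered 1 in place of 2 after the GC correction, where this was CCND1 (0.899 to 0.990), and 1 with the mean transcript length, where CCNE2 was lost and the interval of CCND1 (0.969 to 1.14) also included 1.

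The 135 higher and 239 lower genes among all genes numbered 269 and 522 at a pseudocount of 0.1, 290 and 584 at 0.01, 67 and 128 where the minimum was 5 FPKM, 451 and 991 on the TPM scale, where the same pseudocount and minimum weigh less, and 585 and 1080 with the 1.5-fold rule, and the lower ones 139 with the GC correction, which keeps protein-coding genes alone. Genes of the pathway lists numbered 0 higher and 3 lower, and the lower ones 5, 6 and 6 with pseudocounts of 0.1 and 0.01 and on the TPM scale and 1 with the GC correction, against 8 higher and 9 lower with the 1.5-fold rule. The cause was not tested. No paired analysis was possible because there is only 1 library for each shRNA.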
